A study of Mus musculus with 16 samples.

Results

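The genes described here are 8 long noncoding RNA genes, Malat1, Neat1, Miat, Snhg11, Snhg14, Meg3, Rian and Kcnq1ot1, measured by RNA sequencing in the dorsal root ganglia (DRGs) of mice. They were chosen by symbol, by matching the Ensembl gene identifiers of the count files to gene annotation of the mm10 build. They are 8 of the 52636 genes listed, and all 8 were among the 21371 genes that passed the filter on low counts. The study asked how the antidepressant desipramine (DMI), a tricyclic inhibitor of noradrenaline reuptake, acts on DRGs after spared nerve injury (SNI), in which the common peroneal and sural branches of the sciatic nerve are tied and cut and the tibial branch is spared. All 16 mice were male C57Bl6/J animals of 3 to 4 months, and each gave 1 library from the DRGs of lumbar levels 3 to 6. Sham-Saline mice had sham surgery and saline, SNI-Saline mice had nerve injury and saline, Sham-DMI mice had sham surgery and DMI, and SNI-DMI mice had both, with 4 mice in each group. DMI was given intraperitoneally at 15 mg/kg, 2 times a day for 3 weeks. Treatment started 4 weeks after surgery by the sample labels and the study's abstract and results, while its methods section gives a longer interval. All groups therefore had an operation and repeated injections, and there were no unoperated or uninjected animals.

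Long noncoding RNAs are transcripts that act as RNA. Malat1 and Neat1 stay in the nucleus, Malat1 in the nuclear speckles that store splicing factors and Neat1 as the scaffold of paraspeckles, and Miat forms a further nuclear compartment in neurons. Snhg14, Snhg11 and Rian are host transcripts of small nucleolar RNAs (snoRNAs), most of which are cut from introns, and Meg3, Rian, Kcnq1ot1 and Snhg14 are read from 1 parental copy of imprinted domains.

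Sequences of 4 transcripts show features that bear on how these RNAs are measured and on the partners described below. They are GENCODE M21 transcripts on GRCm38, written 5′ to 3′ in transcript direction as DNA letters, and were searched on the sense strand. Malat1 and the long form of Neat1 end without a normal poly(A) tail, in a structure where U-rich motifs fold onto an A-rich tract, and the libraries were made with a kit that selects poly(A) RNA. Their levels here are therefore the levels of the RNA that this kit recovered. The stretch of Malat1 at chr19:5795975-5796072, minus strand, is in the single exon of the gene, and capitals mark TTTTTCTTTT, TTTTGCTTTT and a run of A.
Malat1: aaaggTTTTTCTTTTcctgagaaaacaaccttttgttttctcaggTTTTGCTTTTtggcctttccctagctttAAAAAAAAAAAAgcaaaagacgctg
The last 110 bases of Neat1 at chr19:5824708-5824817, minus strand, are also exonic, and capitals mark TTTCTTTT, TTTTGCTTTT and AAAAAGCAAAA.
Neat1: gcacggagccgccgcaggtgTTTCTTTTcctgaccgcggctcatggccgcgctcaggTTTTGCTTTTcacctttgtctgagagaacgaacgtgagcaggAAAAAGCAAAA
TTTTGCTTTT occurred once in each of the 2 transcripts, and among the last 400 bases of 122312 annotated transcripts 0.298% held it. The shares for the other motifs were 1.1% for TTTTTCTTTT, 3.18% for a run of 10 A, 4.49% for TTTCTTTT and 0.117% for AAAAAGCAAAA. Over the whole transcripts, TTTTTCTTTT occurred 3 times in Malat1 and TTTCTTTT 3 times in Neat1. The Malat1 stretch also holds TTTCTTTT, within TTTTTCTTTT, and AAAAAGCAAAA, at the end of its run of A. The latter is not fully in capitals there.

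Miat carries copies of TACTAAC, a sequence like the branch point of introns that RNA-binding proteins such as Sf1 and Qk recognise. The annotated transcript Miat-201 of 8758 bases held 6 copies, and of the 1152 transcripts at least as long 3 (0.26%) held that many. The stretch with the 3 closest copies, in capitals, is exonic at chr5:112216752-112216812, minus strand.
Miat: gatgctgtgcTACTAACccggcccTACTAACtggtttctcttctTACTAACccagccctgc
Snhg14 spans 667836 bases of chromosome 7, of which 3.91% are exonic, and 208 annotated snoRNA genes lie in that span. One of them, Gm22285 at chr7:59678509-59678602, minus strand, has the same sequence as a second snoRNA gene, Gm22128, and the same length of 94 bases as the genes named Snord116l. These 2 lie in annotated exons of Snhg14, by 93 and 94 bases, and the other 206 snoRNA genes share no exon base with it. Capitals mark the C and D boxes, TGATGA and CTGA, which define this class of snoRNA and were found in this order in 24% of 1507 annotated snoRNA transcripts.
Gm22285: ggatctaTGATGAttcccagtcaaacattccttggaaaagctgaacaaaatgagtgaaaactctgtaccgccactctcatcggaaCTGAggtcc

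Reads on genes ran from 41194238 in Sham-DMI replicate 3 to 73920332 in Sham-DMI replicate 2, and the 8 genes together held 0.307% to 0.378% of them. GEO's labels give both spinal cord and dorsal root ganglia for the samples. The 12 sensory neuron markers were detected in every library, with a summed level of 10520 to 13370 counts per 1000000 reads on genes (CPM). The summed level of the 12 markers of spinal cord and central glia was 237 to 316.4 CPM, most of it from Slc17a6, which DRG neurons also express. Of the rest, Aqp4, Mobp and Gfap had group means of 2.08 to 14.02 CPM and the other 8 of 0.709 CPM or less, Olig2, Mnx1, Chat and Lbx1 among them at 0.0978 CPM or less. Sham-DMI replicates 2 and 4 stood apart from the other sham libraries in genes of injured neurons. Sprr1a was at 12.2 and 9.19 CPM in them against 0.619 to 2.06 CPM in the other 6, and Atf3 at 20.6 and 21.9 CPM against 7.44 to 13.7 CPM. For the 8 genes and the gene lists, results under sham DMI were also computed without these libraries. Library numbers were 17 to 20 for Sham-DMI, 21 to 24 for SNI-DMI, 33 to 36 for SNI-Saline and 37 to 40 for Sham-Saline. The order of the libraries can therefore not be told apart from the agent, nor from surgery within each agent.

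The genes fell into an abundant and a sparse set. Snhg11 had a mean of 1503 CPM over the 16 libraries and ranked 33 of 21371 genes, Miat had 840.5 CPM (rank 88), Malat1 541 CPM (rank 206) and Neat1 449 CPM (rank 283). Snhg14 followed at 28.57 CPM (rank 7084), Meg3 at 11.17 CPM (rank 10199), Kcnq1ot1 at 7.87 CPM (rank 11148) and Rian at 4.157 CPM (rank 12663). These RNAs were thus not all abundant in these counts of poly(A)-selected RNA. Meg3 and Kcnq1ot1 ranked near and Rian below the middle of the genes tested. Per kilobase of exon, the scale on which levels of different genes can be compared, the order was Snhg11 (176.3 CPM per kb), Miat (90.4), Malat1 (77.5), Neat1 (21.6), Snhg14 (1.1), Meg3 (0.618), Rian (0.228) and Kcnq1ot1 (0.0845). Counting only exon bases that no other gene shares moved Miat from 90.4 to 130 CPM per kb and left the order as it was.

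**Figure D1:**
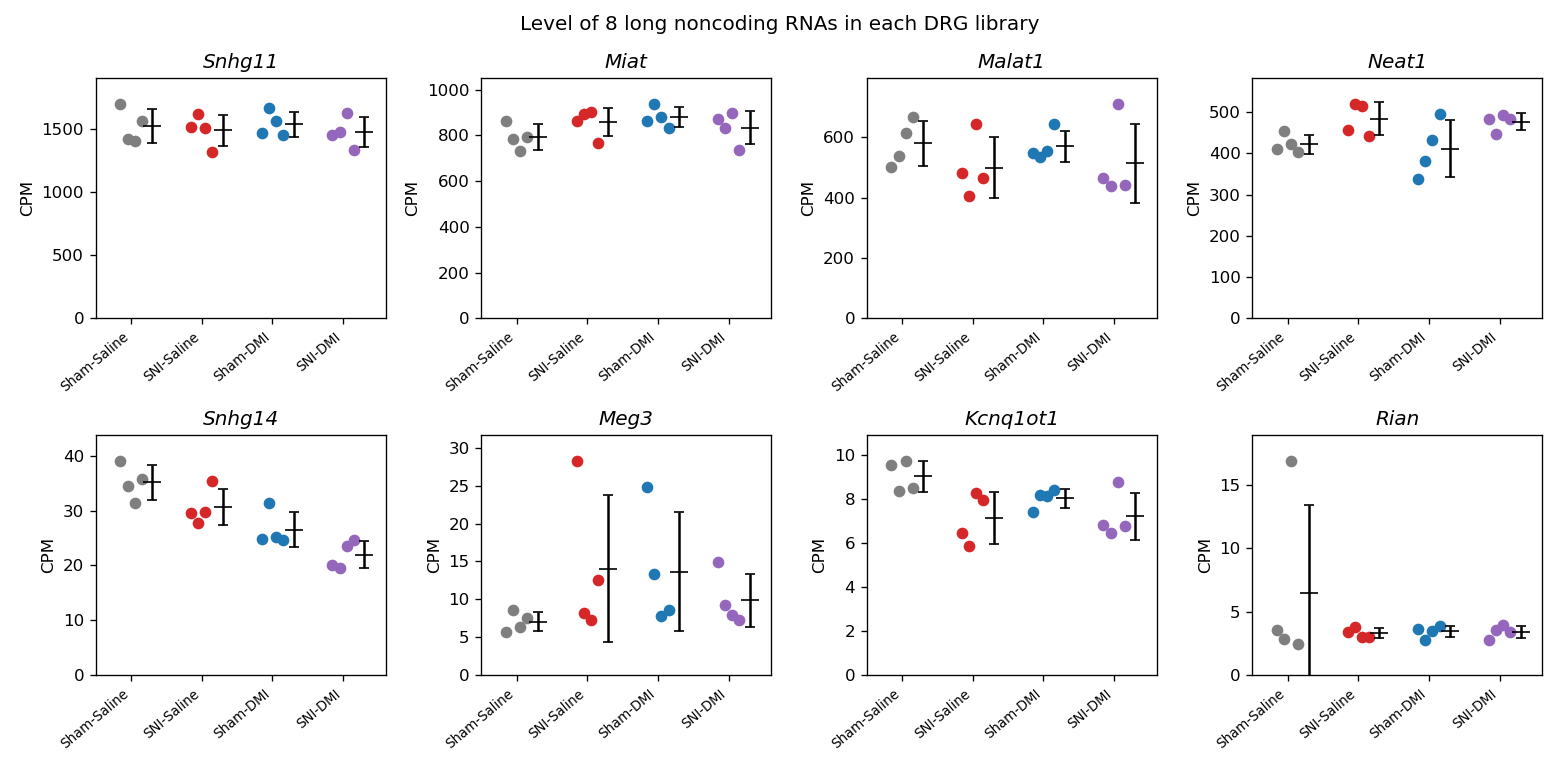
Level of each gene in CPM (linear axes from 0, a separate scale for each gene) in the 4 groups of 4 DRG libraries, with 1 point per mouse and the mean ± SD beside the points (the lower bar of Rian in Sham-Saline is cut off at 0). Snhg14 runs from 35.13 CPM in Sham-Saline down to 21.99 CPM in SNI-DMI, and 1 Sham-Saline library stands at 16.86 CPM of Rian.

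Snhg14, the host transcript of the Snord115 and Snord116 snoRNAs, was lower after DMI in sham-operated and in injured mice. In Sham-Saline its level was 39.01, 34.45, 31.35 and 35.71 CPM, and in Sham-DMI 24.88, 31.3, 25.15 and 24.69 CPM. In SNI-Saline it was 29.64, 27.79, 29.77 and 35.46 CPM, and in SNI-DMI 20.16, 19.59, 23.55 and 24.64 CPM. The saline and DMI libraries did not overlap in either pair, although Sham-DMI replicate 2, 1 of the libraries with raised injury genes, missed the lowest Sham-Saline library only narrowly. By edgeR's quasi-likelihood test with Benjamini-Hochberg adjustment over all genes, Snhg14 fell by 0.41 on the log2 scale under sham (SE 0.0975, 95% interval -0.62 to -0.19, a fold of 0.755, adjusted p = 0.0102) and by 0.48 under SNI (SE 0.0981, interval -0.69 to -0.27, a fold of 0.717, adjusted p = 0.0622).

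It was the only member called in either DMI comparison at an adjusted p under 0.1, where 23.4% of all genes were called under sham and 2.93% under SNI. Among all genes it ranked 36 by p in the SNI-DMI comparison. Groups without overlap were seen for 17.1% and 13.3% of all genes in these comparisons, and for Snhg14 alone among the 8. The difference between both DMI effects on Snhg14 was -0.08 (interval -0.38 to 0.23, adjusted p = 0.91), so a difference between sham-operated and injured mice was not detectable with 4 mice a group.

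The order of the group means was Sham-Saline (35.13 ± 3.17 CPM, SD, n = 4), SNI-Saline (30.66 ± 3.32), Sham-DMI (26.51 ± 3.2) and SNI-DMI (21.99 ± 2.49). The libraries of each of the first 2 pairs of neighbours overlapped. Sham-DMI and SNI-DMI did not overlap, with 5.04% of all genes without overlap there, and the fitted difference of -0.27 had an adjusted p of 0.291. SNI-Saline lay below Sham-Saline by 0.20 on the log2 scale, with an adjusted p of 0.238.

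The Snhg14 differences changed when trends on GC content and exon length were removed together, and neither was removed alone. Its longest transcript had a GC content of 31%, lower than that of all but 0.0422% of tested genes, and its exons were longer than those of 99.8%. With smooth trends of counts on both removed from each library, the difference under sham became 0.39 with an adjusted p of 0.0133, that under SNI became -0.04 with an adjusted p of 0.898, and that of injury under saline became 0.33 with an adjusted p of 0.0833. The trends at such extremes rest on few genes. Without Sham-DMI replicates 2 and 4 the difference under sham was -0.49. Under SNI, omitting any of replicates 1, 3 and 4 of SNI-Saline or 1, 2 and 3 of SNI-DMI ended the call, with adjusted p from 0.122 to 0.207, and the call under sham was kept in all 16 fits that left out 1 library.

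Some markers of other cells were also lower after DMI, while 5 of 12 sensory neuron markers were called higher under sham. Of these 12, 0 were called lower there, where 23.4% of all genes were called, and 0 were called under SNI. Among satellite glia markers Fabp7 was higher in both, at 0.31 under sham (adjusted p = 0.0388) and 0.34 under SNI (adjusted p = 0.0973). Cdh19 was lower under sham (-0.46, adjusted p = 0.0366). All 8 markers of red cells and neutrophils had negative differences in both DMI comparisons, with medians of -0.97 under SNI and -1.31 under sham, and 1 and 3 passed the test. S100a8, a neutrophil protein, fell in both, by 1.70 (adjusted p = 0.0747) and 1.84 (adjusted p = 0.00834). Their summed level was 39.5 to 136.4 CPM in Sham-Saline and 69.39 to 142.6 CPM in SNI-Saline, against 28.62 to 106.6 CPM in Sham-DMI and 33.3 to 89.62 CPM in SNI-DMI, and none was at 0 in a whole group. The 7 tested markers of spinal cord and central glia were likewise all lower, with medians of -0.66 and -0.65. Mobp, a myelin protein, passed under SNI (-1.83, adjusted p = 0.0973), and Gfap, a glial filament protein (-0.69, adjusted p = 0.0863), and Slc17a6 (-0.16, adjusted p = 0.0785) under sham. The summed level of all 12 was 287.3 to 316.4 CPM in Sham-Saline, 271.8 to 285.5 CPM in SNI-Saline, 237 to 294.2 CPM in Sham-DMI and 239.7 to 260.5 CPM for the SNI-DMI libraries. Fewer cells of a type and less RNA per cell cannot be told apart in these bulk samples, and the part of these cells in the Snhg14 differences was not tested.

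Ube3a, the gene for a ubiquitin ligase that Snhg14 overlaps on the opposite strand and silences on the paternal copy in neurons, shares 6.91% of the exon bases of Snhg14. Its mean level was 88.6 ± 8.92 CPM in Sham-Saline, 62.2 ± 6.73 CPM in SNI-Saline, 56.4 ± 10.5 CPM in Sham-DMI and 48.8 ± 2.57 CPM in SNI-DMI (SD, n = 4), the same order of groups as for Snhg14. It fell by 0.51 after injury (adjusted p = 0.0158) and by 0.65 after DMI under sham (adjusted p = 0.00194), and the difference after DMI under SNI was -0.35 (adjusted p = 0.109). Although the kit marks strand, the counts did not separate strands. Of 180 genes covered almost fully by exons of the opposite strand, 88.3% had no count in any library, beside 88% of 133 genes covered on the same strand. Unspliced Snhg14 reads inside other Ube3a exons and reads of Ube3a can therefore not be told apart. Snrpn, which is read from the same domain and encodes a splicing protein, had means of 303, 318, 330 and 332 CPM in the same order of groups, with adjusted p from 0.149 to 0.978. Of the 7 tested genes of the domain list, 1 was lower after injury (Ube3a), and under sham DMI 1 was higher (Ndn, a growth suppressor, by 0.23, adjusted p = 0.0927) and 1 lower (Ube3a). Over all genes 12.0% were called after injury and 23.4% under sham DMI. Without Sham-DMI replicates 2 and 4 Snrpn passed as well, at 0.20 (adjusted p = 0.0373), and Ube3a was at -0.75.

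**Figure D2:**
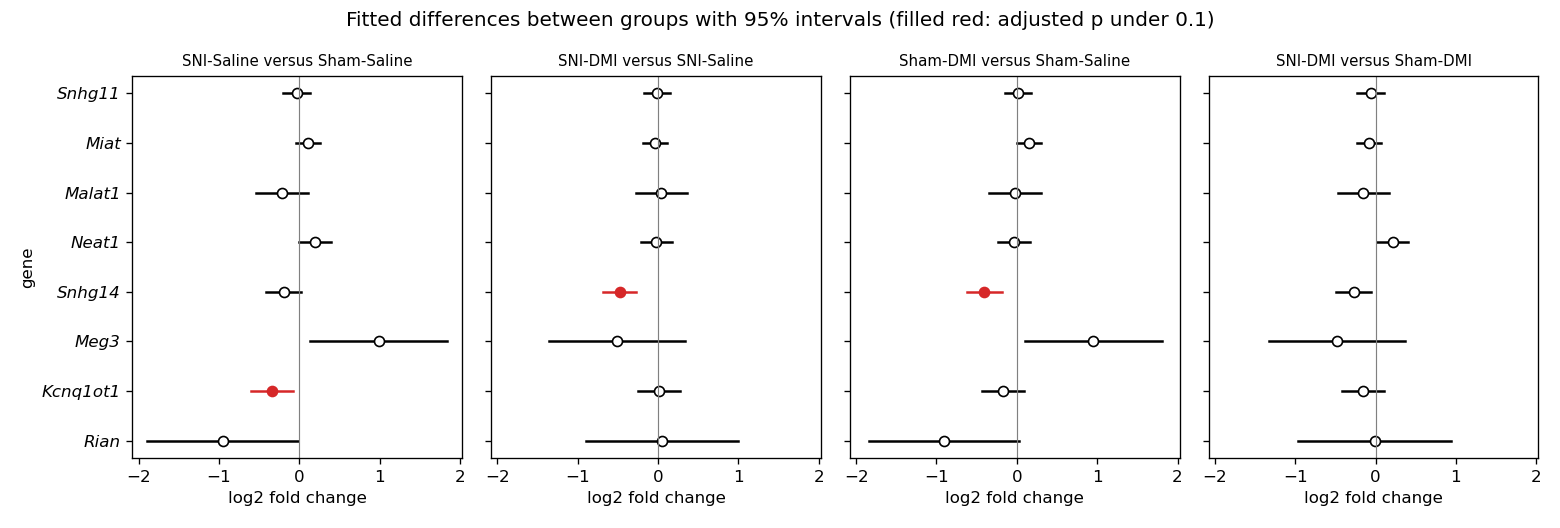
Fitted log2 fold changes (points) with 95% intervals (lines) for the 8 genes in 4 comparisons, with calls at an adjusted p under 0.1 filled in red. Snhg14 is called in both DMI comparisons and Kcnq1ot1 in the injury comparison, while the intervals of Meg3 and Rian are the widest.

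Kcnq1ot1, the antisense RNA that silences genes of the Kcnq1 domain in cis, was lower after injury in saline-treated mice. Its level was 9.58, 8.37, 9.74 and 8.51 CPM in Sham-Saline and 6.47, 5.86, 8.31 and 7.98 CPM in SNI-Saline. The groups did not overlap, but the gap between the lowest Sham-Saline and the highest SNI-Saline library was narrow. The difference was -0.34 on the log2 scale (SE 0.118, 95% interval -0.6 to -0.08, a fold of 0.791, adjusted p = 0.0935), and Kcnq1ot1 was the only one of the 8 genes called in this comparison, where 12.0% of all genes were called and 15.4% had groups without overlap. With DMI the levels were 7.43, 8.19, 8.17 and 8.42 CPM under sham and 6.83, 6.46, 8.81 and 6.8 CPM under SNI. Neither DMI difference passed the test, at -0.17 under sham (adjusted p = 0.362) and 0.01 under SNI (adjusted p = 0.966). The group means ran in the order Sham-Saline (9.05 CPM), Sham-DMI (8.05), SNI-DMI (7.23) and SNI-Saline (7.15), and of the comparisons tested only that of Sham-Saline and SNI-Saline passed.

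The call of Kcnq1ot1 was close to the threshold and was kept in 6 of 12 alternatives. One of these 6 is the exact permutation test, read at an unadjusted p under 0.05 (p = 0.0286, its smallest possible value). The call was lost with upper-quartile normalization (adjusted p = 0.105), with total reads on genes (0.121) and without a filter on low counts (0.125), where Meg3 was the 1 member called instead. It was kept in 8 of 16 fits that left out 1 library. The 8 libraries whose omission ended it were replicates 1, 3 and 4 of Sham-Saline, 1 and 2 of SNI-Saline, 3 of Sham-DMI, and 1 and 4 of SNI-DMI, with adjusted p up to 0.272, and it was lost without Sham-DMI replicates 2 and 4 together. With the trends on GC content and exon length taken out, the difference was -0.15 with an adjusted p of 0.745. The gene is annotated as a single exon of 93092 bases at chr7:143203458-143296549 on the minus strand, inside Kcnq1 on the plus strand. Reads from introns of Kcnq1, which encodes a potassium channel, cannot be told apart from it. Kcnq1 itself had group means of 2.01 to 2.34 CPM and a difference of -0.17 after injury (adjusted p = 0.548). Of the 10 tested genes of the Kcnq1 domain list 0 were called after injury by edgeR, 0 by DESeq2, and 0 had an unadjusted p under 0.05. Under sham DMI 2 were higher, Slc22a18, a membrane transporter (0.34, adjusted p = 0.00643), and Tssc4 (0.24, adjusted p = 0.055). Of all genes edgeR called 12.0% after injury and 23.4% under sham DMI.

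**Figure D3:**
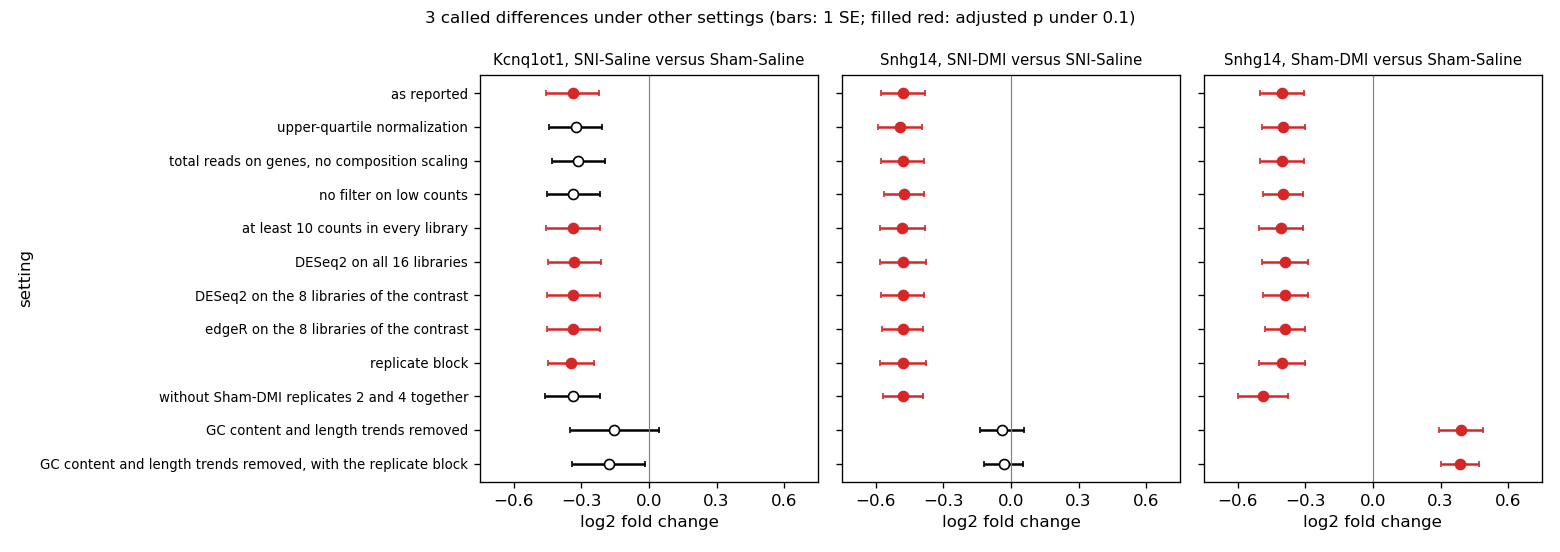
Log2 fold changes (points, with bars of 1 SE) of the 3 called differences under each setting, with adjusted p under 0.1 filled in red. Taking out the trends on GC content and exon length moved Snhg14 from -0.41 to 0.39 under sham and from -0.48 to -0.04 under SNI, and the other settings left all 3 differences negative.

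Meg3 and Rian lie next to each other in the Dlk1-Dio3 imprinted domain and are both expressed from the maternal copy. Meg3 was at 5.76, 8.64, 6.4 and 7.5 CPM in Sham-Saline and at 28.24, 8.23, 7.23 and 12.59 CPM in SNI-Saline. In Sham-DMI it was at 24.88, 13.41, 7.82 and 8.61 CPM, and in SNI-DMI at 14.92, 9.33, 7.92 and 7.28 CPM. The Sham-Saline libraries were all low, and replicate 1 was the highest library of each other group. The fitted differences were 0.99 for injury (SE 0.394, adjusted p = 0.139), 0.95 for DMI under sham (SE 0.394, adjusted p = 0.107) and -0.51 for DMI under SNI (SE 0.389, adjusted p = 0.502), and none passed edgeR's test with all 16 libraries. The difference under sham DMI was called in 8 of 12 alternatives, with adjusted p from 0.0414, and in 6 of 16 fits without 1 library. The injury difference was called in 2 alternatives, without a filter (adjusted p = 0.0618) and by edgeR on the 8 libraries of the contrast (0.0878). Without SNI-Saline replicate 1 the injury difference was 0.42, and without Sham-DMI replicate 1 that of DMI under sham was 0.51. The difference between both DMI effects was -1.47 (SE 0.553, unadjusted p = 0.0163, adjusted p = 0.619). No gene of the series was called for this difference by edgeR (0%), where 1692 (7.92%) had an unadjusted p under 0.05, and Meg3 was the 1 member among them. DESeq2 called 16 genes, none of them a member.

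Rian was at 3.56, 2.84, 16.86 and 2.49 CPM in Sham-Saline and between 2.77 and 3.96 CPM in the 12 other libraries. The group mean was 6.44 CPM in Sham-Saline, against 3.32 CPM in SNI-Saline, 3.45 CPM in Sham-DMI and 3.42 CPM in SNI-DMI, and Sham-Saline replicate 3 was its only library above 3.96 CPM. The injury difference was -0.96 (adjusted p = 0.189) with Sham-Saline replicate 3 and 0.18 without it, and that of DMI under sham was -0.90 (adjusted p = 0.164) with it and 0.24 without it. Meg3 was not raised in the same library, at 6.4 CPM. Mirg, the microRNA host of the same domain, had means of 26, 28.2, 31.5 and 31.6 CPM in the same order of groups and rose by 0.28 after DMI under sham (adjusted p = 0.0264). It was the 1 of 3 tested genes of the domain list that was called in that comparison, where 23.4% of all genes were called.

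Malat1 levels overlapped between all groups. It was at 502.4, 538.9, 613.5 and 668.1 CPM in Sham-Saline, 481.7, 406.6, 643.8 and 464.8 CPM in SNI-Saline, 547, 535.5, 553 and 645.6 CPM in Sham-DMI and 466.6, 437.2, 710.1 and 440.4 CPM in SNI-DMI. In both injured groups replicate 3 was the high library. The differences were -0.22 for injury (95% interval -0.54 to 0.11, adjusted p = 0.408), 0.04 for DMI under SNI (interval -0.28 to 0.36) and -0.03 for DMI under sham (interval -0.35 to 0.3).

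Neat1 had higher means in both injured groups. It was at 410.8, 453.8, 422.2 and 402.5 CPM in Sham-Saline, 457.9, 519.9, 516.3 and 443.4 CPM in SNI-Saline, 338, 380.6, 432.7 and 496.8 CPM in Sham-DMI and 483, 448.4, 494.4 and 483.5 CPM in SNI-DMI. The injured and sham libraries overlapped under each agent. The injury difference was 0.20 under saline (SE 0.0887, unadjusted p = 0.0388, adjusted p = 0.188) and 0.21 under DMI (SE 0.0888, unadjusted p = 0.0279, adjusted p = 0.351), and neither passed edgeR's test with all 16 libraries. The injury difference under saline was called by DESeq2 (adjusted p = 0.0197) and edgeR (0.0621) on the 8 libraries of that contrast, and was 0.36 with the GC content and length trends removed (adjusted p = 0.0593). Both DMI differences were small, at -0.02 under SNI (95% interval -0.21 to 0.17) and -0.04 under sham (interval -0.23 to 0.16). Markers of other cells moved with injury too. Of 6 macrophage markers 3 were higher after injury, Cd68, Aif1 and C1qa, with a list median of 0.53, where 12.0% of all genes were called. Under DMI the median was 0.64, and 0 were called by edgeR, 5 had an unadjusted p under 0.05 and 2 were called by DESeq2. Their summed level was 68.65 to 80.08 CPM in Sham-Saline and 84.29 to 143.7 CPM in SNI-Saline, and 54.99 to 74.44 CPM in Sham-DMI and 70.16 to 130 CPM in SNI-DMI, with none at 0 in a whole group. Of 8 genes of injured neurons 7 were higher after injury, and their summed level was 501.1 to 556 CPM in SNI-Saline against 304.4 to 327.6 CPM in Sham-Saline. The part of these cells in the differences of Neat1 and Kcnq1ot1 was not tested.

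Neither Miat nor Snhg11 was called by edgeR with all 16 libraries. Miat was at 864.2, 783.1, 729.5 and 794 CPM in Sham-Saline, 864.4, 893.9, 901.8 and 767.2 CPM in SNI-Saline, 864.1, 936.5, 881.1 and 833 CPM in Sham-DMI and 870.2, 831.1, 899.6 and 734 CPM in SNI-DMI. Its groups overlapped in all 4 comparisons, and the largest difference was 0.15 for DMI under sham (SE 0.0691, adjusted p = 0.154). It was called in 4 of 12 alternatives, by DESeq2 on 16 (adjusted p = 0.0909) and 8 libraries (0.0736) and with the GC content and length trends removed, with and without the replicate block (0.205, adjusted p = 0.0487 in both), and in 3 of 16 fits without 1 library. The antisense gene Gm26953 covers 24.3% of the exon bases of Miat, and reads in shared bases were not counted for either gene, so the level of Miat is a lower estimate. Snhg11, a snoRNA host that GENCODE M21 lists as protein coding, had a mean of 1519 ± 136.3 CPM in Sham-Saline and 1534 ± 98.4 CPM in Sham-DMI, beside 1487 ± 123.8 CPM in SNI-Saline and 1470 ± 118.1 CPM in SNI-DMI (SD, n = 4). Its libraries ran from 1317 to 1694 CPM, and its 4 differences lay between -0.06 and 0.01 with 95% intervals inside -0.23 and 0.18.

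Among the 8 genes, SNI-DMI versus Sham-DMI gave 0 calls by edgeR, with 0.402% of all genes called, 2 of the 8 with an unadjusted p under 0.05 (Neat1 and Snhg14, beside 12.1% of all genes), and 0 calls by DESeq2. With the study's own limits for DEGs (unadjusted p below 0.05, log2 fold change beyond 0.32 either way), 3 of the 8 passed after injury (Meg3, Rian and Kcnq1ot1, 7.15% of all genes), 2 after DMI under sham (Meg3 and Snhg14, 11.5%) and 1 after DMI under SNI (Snhg14, 5.73%). In SNI-DMI versus Sham-DMI 0 of the 8 passed them (5.41%), and for the difference between both DMI effects 1 did (Meg3, 3.45%). The median log2 fold change of the 8 was -0.11, -0.03 and -0.02 in these comparisons, beside -0.001, -0.021 and -0.005 over all genes tested. Of all 2384 long noncoding genes tested 2.77% were called after injury, 7.17% after DMI under sham and 0.965% after DMI under SNI, beside 14.9%, 28.1% and 3.59% of 15725 protein-coding genes. The 2 types were not matched for level, so these shares do not show that long noncoding genes respond less. SNI-Saline and Sham-Saline each stand in 2 of these comparisons.

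From a list of 30 other long noncoding RNAs 25 were tested, and 4 passed after injury and 6 after DMI under sham, shares close to the 12.0% and 23.4% of all genes. After injury 3 were higher, the snoRNA hosts Snhg5 (0.46, adjusted p = 0.0388), Snhg8 (0.42, adjusted p = 0.0749) and Gas5 (0.21, adjusted p = 0.0961), and 1 was lower, Tug1 (-0.27, adjusted p = 0.0308). After DMI under sham 5 were higher and 1 lower, with Snhg8 at 0.50 (adjusted p = 0.019), Mirg at 0.28 and Tug1 at -0.34 (adjusted p = 0.00395). After DMI under SNI 0 were called by edgeR and 0 by DESeq2, and 4 had an unadjusted p under 0.05. The list's median was 0.14, 0.07 and -0.02 in these comparisons. Without Sham-DMI replicates 2 and 4 again 5 were higher and 1 lower under sham.

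For the mRNAs of paraspeckle proteins, for which Neat1 is the scaffold, 3 of 14 passed after injury, 6 after DMI under sham and 1 after DMI under SNI, where 12.0%, 23.4% and 2.93% of all genes did. Of the 14, 2 were higher and 1 lower after injury, with Taf15 at 0.21 (adjusted p = 0.037) and Cpsf6, a subunit of the 3′ end cleavage factor, at -0.28 (adjusted p = 0.0338). After DMI under sham 5 were higher and 1 lower, with Cpsf6 at -0.40 (adjusted p = 0.00235) and Taf15 at 0.18 (adjusted p = 0.0341), and after DMI under SNI 1 was higher, Hnrnph3 at 0.19 (adjusted p = 0.0841). Without Sham-DMI replicates 2 and 4 the counts under sham became 1 higher and 3 lower, with Cpsf6 at -0.48 and Taf15 at 0.26. Of 15 mRNAs of nuclear speckle proteins, the compartment of Malat1, 2 were higher after injury, where 12.0% of all genes were called, and 1 was higher and 4 lower after DMI under sham, where 23.4% were. Without those libraries 1 was higher and 5 lower under sham. The RNA helicase Ddx39b was higher in both, at 0.15 (adjusted p = 0.0549) and 0.25 (adjusted p = 0.00288), and was the 1 mRNA of the list called after DMI under SNI, at 0.20 (adjusted p = 0.0656). Srsf5, a splicing factor, was higher after injury at 0.15 (adjusted p = 0.0812), and Srrm1 was lower after DMI under sham at -0.15 (adjusted p = 0.0338).

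Of 12 listed partners of Miat and factors of nuclear RNA decay and retention, Sf1 was at 0 in every library and could not be tested. Whether this 0 comes from the counting or the tissue was not tested. Among the 11 others, 1 was lower after injury, where 12.0% of all genes were called, the neuronal RNA-binding protein Elavl4 (-0.20, adjusted p = 0.0955). After DMI under sham, where 23.4% were called, 1 was higher and 3 lower, or 0 and 4 without Sham-DMI replicates 2 and 4, with Qk, one of the proteins that read the motif shown above for Miat, at -0.51 (adjusted p = 0.0106) and the m6A reader Ythdc1 at -0.19 (adjusted p = 0.0226). Genomic neighbours of the abundant members are read against the same shares of all genes. Of 9 neighbours of Malat1 and Neat1, 2 were higher after injury (1 without Sham-DMI replicates 2 and 4) and 2 after DMI under sham, with Cdc42ep2, a regulator of the actin skeleton, at 0.27 (adjusted p = 0.0246) and 0.30 (adjusted p = 0.0055). Of 7 tested neighbours of Miat and Snhg11, 1 was higher and 1 lower in each of these comparisons, with Ralgapb, a GTPase regulator, at -0.19 (adjusted p = 0.0527) after injury and -0.15 (adjusted p = 0.0795) after DMI under sham.

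Across the 16 libraries 2 of the 28 pairs of members varied together beyond an adjusted p of 0.05. For Miat and Snhg11 Pearson's r of log2 CPM was 0.764 and Spearman's rho 0.747 (permutation test, p = 0.00063, adjusted p = 0.0176), and r was 0.694 without the 2 libraries farthest from the median of Miat. For Malat1 and Kcnq1ot1 r was 0.741 and rho 0.779 (permutation p = 0.00145, adjusted p = 0.0203), and r was 0.66 without the 2 libraries farthest from the median of Malat1. Within the 8 saline and the 8 DMI libraries r was 0.693 and 0.912 for the first pair and 0.669 and 0.931 for the second. For deviations from group means r was 0.904 for the first pair and 0.706 for the second. Meg3 and Rian, neighbours in 1 domain, had an r of -0.254 and a rho of -0.232 (adjusted p = 0.756).

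**Figure D4:**
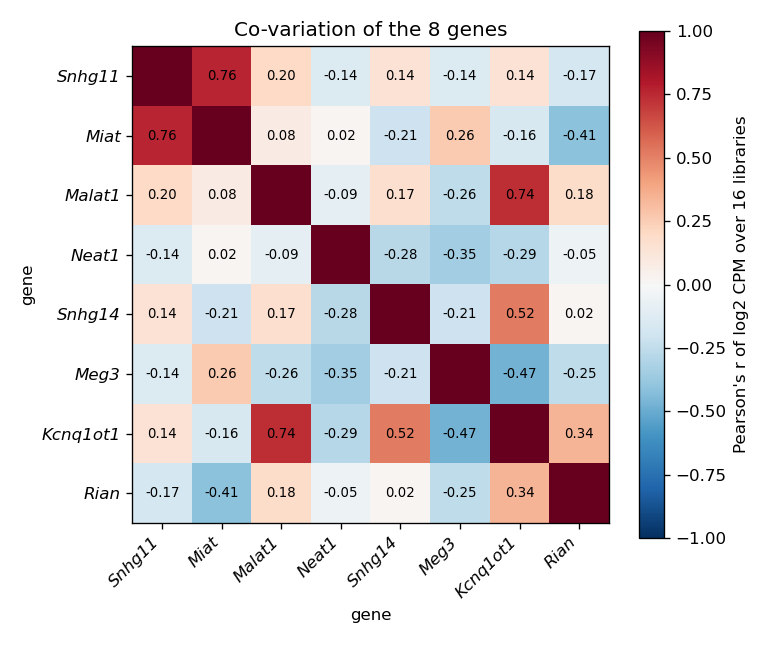
Pearson's r of log2 CPM over the 16 libraries for each pair of the 8 genes (colour scale from -1 to 1, values in the cells). The pairs Miat with Snhg11 (0.764) and Malat1 with Kcnq1ot1 (0.741) stand out, and Meg3 with Rian is at -0.254.

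The share of read pairs that fell in no annotated exon moved with several of the genes. Sham-Saline libraries had 8.67% to 9.44% and SNI-Saline libraries 7.73% to 9.14%. The range was 7.1% to 8.79% for Sham-DMI and 7.42% to 8.38% for SNI-DMI, and by the exact two-sided permutation test (smallest possible p = 0.0286) its difference had p = 0.114 for injury, 0.0571 for DMI under sham and 0.543 for DMI under SNI. Over the 16 libraries r with this share was 0.747 for Kcnq1ot1 (rho 0.812, permutation test, adjusted p = 0.00984 over 8 genes, 0.711 without 2 libraries), 0.648 for Snhg14 (rho 0.6, adjusted p = 0.0298, 0.567 without them) and -0.578 for Meg3 (rho -0.621, adjusted p = 0.0459, -0.476 without them). Within the 8 saline and 8 DMI libraries r was 0.828 and 0.669 for Kcnq1ot1, 0.466 and 0.508 for Snhg14, and -0.759 and -0.29 for Meg3. The permutations ran over all 16 libraries, so they do not separate differences between groups from variation within them. For deviations from group means r was 0.663 for Kcnq1ot1, 0.322 for Snhg14 and -0.491 for Meg3, without a test. On this scale it was 0.525 for Malat1, 0.567 for Miat, 0.532 for Snhg11, 0.321 for Neat1 and -0.0527 for Rian. Kcnq1ot1, Snhg14 and Meg3 were thus not the only members that varied with this share within groups. Over the 16 libraries r was 0.523 for Malat1 (rho 0.559, permutation test, adjusted p = 0.0774), 0.44 for Snhg11, 0.17 for Rian, 0.0633 for Miat and -0.0218 for Neat1. The part of this share in the differences of Kcnq1ot1 and Snhg14 was not tested.

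**Figure D5:**
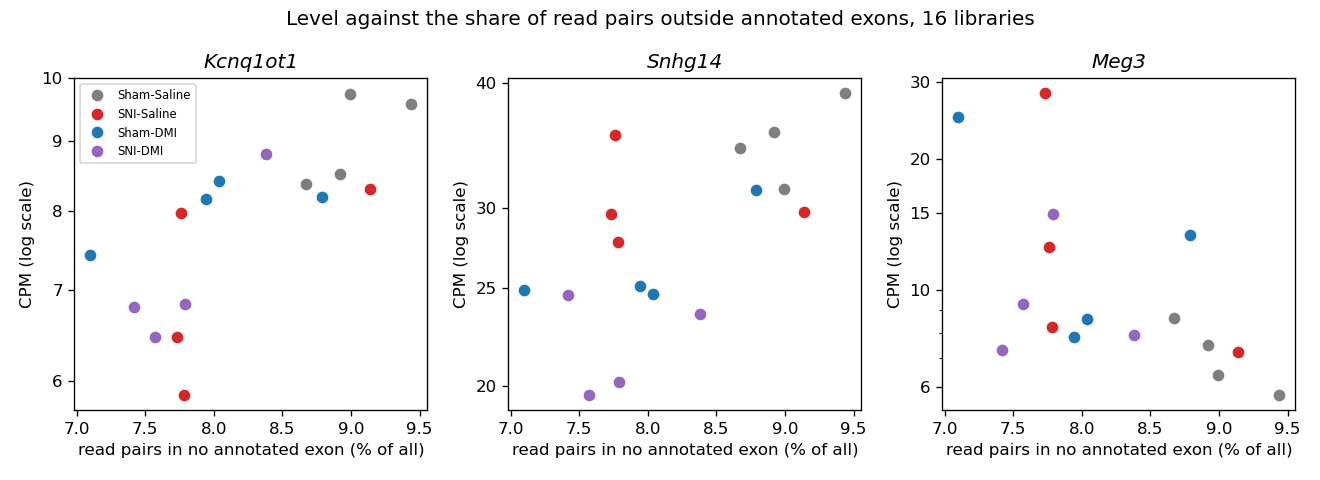
Level of 3 genes (CPM, log axis) against the share of read pairs in no annotated exon (% of all read pairs), 1 point per library, coloured by group. Kcnq1ot1 (r = 0.747) and Snhg14 (r = 0.648) were higher, and Meg3 (r = -0.578) lower, in libraries with a larger share.

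The genes whose pattern over the 16 libraries was most like each member were taken by Pearson's r of log2 CPM among 15749 genes with a mean of at least 1 CPM. They are a description, since the highest of many values was taken. For Snhg14 they were Slc25a46, a mitochondrial outer membrane protein (r = 0.97), and the zinc finger gene Zfp942 (0.956), and for Kcnq1ot1 Slc35e2 (0.904) and the histone methyltransferase Nsd1 (0.893). For Neat1 they were Triobp, an actin-binding protein (0.883), and Plat, the tissue plasminogen activator (0.875), for Malat1 the splicing factor Hnrnpa1 (0.836) and Zkscan2 (0.769), and for Miat Plekhn1 (0.841) and the zinc transporter Slc30a6 (0.836). For Snhg11 they were the noncoding gene C78859 (0.871) and Vps33b (0.862), for Meg3 Gnb1l (0.768) and Lrrc3b (0.752), and for Rian the pseudogenes Gm6473 (0.71) and Gm9727 (0.702). These latter values fell to -0.0495 and 0.29 within the 8 DMI libraries. Slc25a46 had a mean of 136 CPM in Sham-Saline and 122 CPM in SNI-Saline, with lower means of 115 CPM in Sham-DMI and 103 CPM in SNI-DMI, the same order of groups as Snhg14.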

How the data were processed

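The authors sequenced DRG RNA of 16 mice from a stranded, poly(A)-selecting kit, with paired reads of 50 bases. Per the labels, reads were aligned to mm10 with HISAT2, and the authors deposited whole-number counts per Ensembl gene from HTSeq, without normalization. Versions, annotation release and strand setting are not given in the sources used here. The 5 lines of unassigned reads per file were left out of library sizes (no feature 7.1% to 9.44% of read pairs, ambiguous 3.05% to 3.41%). Symbols, exons and overlaps came from GENCODE M21, which held 52489 of the 52636 genes listed.

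Counts were filtered with edgeR's filterByExpr, scaled by TMM and fitted with glmQLFit and glmQLFTest (edgeR 4.0.16, R 4.3.3), with 1 coefficient per group over all 16 libraries. SEs were derived from the log2 fold change and the F statistic, and 95% intervals from these SEs. Genes were called at a Benjamini-Hochberg adjusted p under 0.1 over 21371 genes. CPM used TMM-scaled library sizes, and log2 CPM a prior count of 2. Correlations used 100000 permutations. Alternatives used edgeR, DESeq2 1.42.0 and mgcv 1.9.3 (GC content and length trends with a basis size of 8, for 21324 of 21371 genes), and Python 3.11.15 with matplotlib 3.10.9 drew the figures. The procedure was tested on simulated data. Replicates differed by more than counting error, with a chi-square per gene of 10.4 to 44.3 over 24 pairs, where a value near 1 would be counting error alone. Counts per library ran from 141 to 1082 for Rian, 313 to 1559 for Meg3, 327 to 625 for Kcnq1ot1 and 1007 to 2441 for Snhg14, and were 17327 or more for the other 4.

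Named were all 8 members, the 2 genes most like each, and genes whose exons overlap a member. Of the lists, in general up to 2 called genes with the smallest p per comparison were named. For some lists more were named, among them genes that were not called, such as Snrpn. The members, lists and rules were chosen with earlier results of these data known.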

Additional observations from a re-analysis of the deposited data

Results flagged for a closer look

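In 5 of the 32 combinations of gene and group, 1 library lay farther from the other 3 than Dixon's test at 95% allows, where chance flags about 1 in 20 groups. Malat1 was at 710 CPM in SNI-DMI replicate 3, with the next library at 467 CPM, and at 646 CPM in Sham-DMI replicate 4, with the next at 553 CPM. Kcnq1ot1 was at 8.81 CPM in SNI-DMI replicate 3, the same library, with the next at 6.83 CPM. Rian was at 16.9 CPM in Sham-Saline replicate 3, with the next at 3.56 CPM. Snhg14 was at 31.3 CPM in Sham-DMI replicate 2, with the next at 25.1 CPM, and that library also had raised Sprr1a and Atf3 and, at 8.79%, the largest share of read pairs in no annotated exon of the DMI libraries.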

How the results depend on the processing

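For single members, 401 values under an alternative kept their direction and their side of the threshold. A further 20 passed the threshold where the reported value did not, 8 no longer passed, and 27 changed sign. The alternatives for members include the exact permutation test, read at an unadjusted p under 0.05. Of the 8 members, 1 was called after injury in the reported fit. That count was 3 by the nominal cut-offs, and 3 with DESeq2 and 3 with edgeR on the 8 libraries of the contrast. It was 2 with GC and length trends removed, and 2 with them removed and the replicate block. With the trends removed the 2 were Neat1 and Snhg14, not Kcnq1ot1, and Snhg14 had its sign reversed. The count was 1 without a filter, where it was Meg3 and not Kcnq1ot1. The count was 0 with upper-quartile normalization, with total reads on genes and without Sham-DMI replicates 2 and 4, an alternative chosen after seeing the data. Without 1 replicate it was 0 to 3. After DMI under SNI the count of 1 became 0 with the trends removed, with and without the replicate block, and was 0 to 1 without 1 replicate. After DMI under sham the count of 1 became 2 by the nominal cut-offs, without a filter, with at least 10 counts in every library, with DESeq2 on 16 libraries, with edgeR on 8, with the replicate block and without Sham-DMI replicates 2 and 4, became 3 with DESeq2 on 8 libraries and with the trends removed, with and without the replicate block, and was 1 to 3 without 1 replicate. Under sham DMI with the trends removed, with and without the replicate block, Snhg14 was among the 3 called with its sign reversed. For the difference between both DMI effects the count was 1 by the nominal cut-offs and 0 otherwise.

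With the trends removed, and in brackets with the replicate block as well, signs changed after injury for Snhg11 to 0.065 (0.06) and Snhg14 to 0.329 (0.33), after DMI under SNI for Neat1 to 0.064 (0.062) and Snhg11 to 0.077 (0.079), and after DMI under sham for Malat1 to 0.171 (0.178), Neat1 to 0.168 (0.164), Kcnq1ot1 to 0.23 (0.242) and Snhg14 to 0.391 (0.386). They also changed for Rian in SNI-DMI versus Sham-DMI to 0.111 (0.089), and for the difference between both DMI effects for Neat1 to -0.104 (-0.102), Kcnq1ot1 to -0.054 (-0.07) and, only with the block, Malat1 to -0.002. Without Sham-DMI replicates 2 and 4, Snhg11 after DMI under sham was -0.005 and the difference between DMI effects on Snhg14 0.009. With upper-quartile normalization the difference between DMI effects on Neat1 was -0.005, and with total reads on genes Rian in SNI-DMI versus Sham-DMI was 0.01. The causes were not tested.

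Leaving out 1 library changed the sign of these differences. After injury the ranges were -1.216 to 0.179 for Rian and -0.063 to 0.035 for Snhg11. After DMI under SNI they were -0.079 to 0.086 for Kcnq1ot1, -0.138 to 0.18 for Malat1, -0.768 to 0.086 for Meg3, -0.091 to 0.017 for Miat, -0.063 to 0.031 for Neat1, -0.018 to 0.142 for Rian and -0.072 to 0.042 for Snhg11. After DMI under sham they were -0.074 to 0.05 for Malat1, -0.12 to 0.066 for Neat1, -1.166 to 0.239 for Rian and -0.02 to 0.088 for Snhg11, and in SNI-DMI versus Sham-DMI -0.094 to 0.082 for Rian. For the difference between DMI effects they were -0.131 to 0.207 for Malat1, -0.086 to 0.101 for Neat1, -0.183 to 1.205 for Rian, -0.09 to 0.008 for Snhg11 and -0.153 to 0.009 for Snhg14.

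Over all genes, 2571 calls after injury became 4146 with DESeq2 on 8 libraries, 990 with the trends removed and 588 with the block as well. The 626 after DMI under SNI became 1859 and 3014 with DESeq2 on 16 and 8 libraries, 1812 with edgeR on 8, 54 with the trends removed and 13 with the block as well, and 1206 without Sham-DMI replicates 2 and 4. The 5010 after DMI under sham ran from 3594 to 5580. The 86 in SNI-DMI versus Sham-DMI became 502 and 337 with DESeq2, 310 without a filter, 242 with the trends removed, 30 without Sham-DMI replicates 2 and 4 and 9 with edgeR on 8 libraries. For the difference between DMI effects 0 became 16 with DESeq2. Without 1 library these counts were 682 to 3286, 0 to 1842, 3286 to 6094, 17 to 850 and 0 to 1. Whether the replicate numbers pair the samples could not be settled from correlations of deviations from group means. Of 24 pairs of libraries with the same number, 5 had a correlation over 0.1 (range -0.0813 to 0.184, median 5e-06). For pairs with different numbers the range was -0.248 to 0.169 and the median 0.00138. In all, 7 of 16 libraries correlated best with a library of their own number. With the replicate block the calls over all genes were 2106, 172, 4739, 70 and 0. Counting error alone gives a CV of 4% to 5.53% for Kcnq1ot1, whose groups had CVs from 5.34% in Sham-DMI to 16.4% in SNI-Saline. For Snhg14 it gives 2.02% to 3.15%, beside group CVs of 9.02% to 12.1%. For Meg3 it gives 2.53% to 5.65%, beside group CVs of 17.9% to 69.1%. All alternatives were run for the members and the counts over all genes. The lists were run only with DESeq2 on 16 libraries and without Sham-DMI replicates 2 and 4.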
